A study of Macaca fascicularis and Macaca mulatta with 24 samples.

Results

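Gene expression was compared in the ischemic cortex of cynomolgus macaques 1 h after a stroke, between animals given the peptide TatNR2B9c and animals given placebo. The comparison used 6 of the 24 arrays of the series, chosen by their labels: 3 from TatNR2B9c animals and 3 from placebo animals, each reading cortex of the right hemisphere at 1 h. In all animals the right middle cerebral artery was occluded, a model of stroke in the territory of that vessel, and the left cortex was sampled as the non-ischemic side. TatNR2B9c (2.6 mg/kg) or placebo was given intravenously 5 min after the occlusion. Each array held total RNA of a cortical biopsy in the red dye Cy5 and a rhesus macaque Universal Reference RNA in the green dye Cy3, with no dye swap. The groups have 3 animals each per the labels, and ages and sexes of the animals are not given in the sources used here. The SEs and p-values of genes rest on a spread pooled over all 8 groups of the series, not on these 6 arrays alone.

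TatNR2B9c is a peptide in which the last residues of the NMDA receptor subunit NR2B follow a Tat segment that carries them into cells. The NMDA receptor is a glutamate-gated channel that lets calcium into neurons, and it floods them with calcium when glutamate builds up in ischemic tissue. Through the end of NR2B the receptor binds the scaffold PSD-95, which holds neuronal nitric oxide synthase beside it, and the peptide was made to part the receptor from this scaffold. It acts on protein binding, so the array asks whether RNA levels differed in treated tissue early after the occlusion.

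The genes described in most detail were read by the following 60-base probes, whose first 30 bases are shown (bases 7 to 36 for MUPCDH). The sequences are shown because they differ in base composition, along which the results differed, and because 2 of the leading genes share nearly all of their probe. Capitals mark G and C. Coordinates are those of the array files on the rhesus build rheMac2, and the files give none for SLC8A2.
MUPCDH, chr14:426628-426687, minus strand: GCtaGaGGtCCCGCtCCCCtaaCCCCCGaC
MUCDHL, chr14:426622-426681, minus strand: GCtaGaGGtCCCGCtCCCCtaaCCCCCGaC
TECR, chr19:14278444-14278503, plus strand: CattCtGGGGGaGGaGtGGGGCCCGCaGCt
NMB, chr7:64641887-64641946, plus strand: GCaGaCaCaGattatGttCCtGCtGtattt
SLC8A2: aGGGGCCtGtGtGtGtatataGtGtGtttG
VAX2, chr13:71235884-71235943, plus strand: CGtGaGtGGtGtGCGtGtGtGtGtCtCtCa
SGTB, chr6:63545432-63545491, minus strand: GGtGaaCaGaGaatCttaaGaGCtGttaGa
MAP2, chr12:73520875-73520934, plus strand: GGCCatttGtGataCttCCtCatataCttG
SCN8A, chr11:48934563-48934622, plus strand: tCCataCCGGCtataattCtttattaatGa
The MUPCDH and MUCDHL probes share 54 of their 60 bases, so they are not independent readings. Both names are older symbols of a mucin-like protocadherin.

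The arrays of the 2 treatments were read in separate campaigns, per the file headers. The TatNR2B9c arrays were on other slides, scanned on another day and scanner, and extracted with a later software version than the placebo arrays. Treatment and scan campaign therefore cannot be told apart in any difference below. In Cy5, probes well above background made up 58.1%, 69.8% and 64.9% of all probes on the TatNR2B9c arrays, against 75.1%, 73.3% and 76.7% on the placebo arrays. In Cy3, which held a reference RNA of the same name throughout, it was 74.4%, 62.8% and 53.9% on the TatNR2B9c arrays, against 51.0%, 51.7% and 22.2% on the placebo arrays. Whether both campaigns used the same preparation of it was not tested. Neither channel's groups overlapped, and both differences had p = 0.1 in an exact two-sided permutation test, the smallest that 3 against 3 arrays can give (adjusted p = 0.3 over 6 measures). Placebo array 3 had the weakest reference channel and the narrowest spread of log2 ratios (SD 0.65 over genes, against 1.03 to 1.11 on the TatNR2B9c arrays and 1.06 and 1.08 on the other placebo arrays).

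Marker genes were counted as detected when well above background in Cy5 on all arrays of at least 1 of the 8 groups. Of all gene probes, 17213 of 20217 met this rule. All 29 neuron markers on the array were detected, as were 19 of 20 astrocyte markers, all 19 oligodendrocyte markers and 13 of 16 lymphocyte markers. So were all 20 endothelial and mural markers and 17 of 19 microglia and macrophage markers. Because most probes met the rule, and any 1 group could meet it, these counts do not check the tissue label of the 6 arrays. In a bulk biopsy, fewer cells of a type and less RNA per cell cannot be told apart.

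In the log2 ratio of cortex to reference RNA, 247 of 15753 genes (1.57%) passed an adjusted p of 0.05 between TatNR2B9c and placebo in the right cortex (limma, Benjamini-Hochberg over all genes). Of these, 58 genes (0.368%) were higher and 189 genes (1.2%) lower in TatNR2B9c cortex. The authors' series matrix gave 104 higher and 836 lower, and the extraction software's processed signals gave 120 and 830. The median difference over all genes was 0.02. The count rested on single arrays: it was 17 without TatNR2B9c array 1, 24 without placebo array 3, 59 without placebo array 1 and 63 without TatNR2B9c array 2. The values of the 3 TatNR2B9c and the 3 placebo arrays did not overlap for any of the 247 genes, as was so for 26.1% of all genes tested.

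The genes of the peptide's own target showed no difference in the ratio that passed the test. GRIN1, the obligatory NMDA receptor subunit, had log2 ratios of 1.38, 1.28 and 1.61 on the TatNR2B9c arrays, against 1.52, 2.22 and 0.28 on the placebo arrays (difference 0.08 ± 0.45 SE, adjusted p = 0.96). GRIN2B, which encodes NR2B itself, had 0.11, 0.74 and 0.48 on the TatNR2B9c arrays, against 0.05, 0.09 and -0.01 on the placebo arrays. Its groups did not overlap, but the difference of 0.40 ± 0.52 was within the SE, which is pooled over all 8 groups (adjusted p = 0.80). Its Cy5 brightness over background was only 11.7, 147 and 86.6 on the TatNR2B9c arrays and 34.4, 13.1 and 14.7 on the placebo arrays. GRIN2A, the other main cortical NR2 subunit, differed by 0.89 ± 0.44 (adjusted p = 0.38), with the ratio of the third placebo array far below the other two at 0.69. DLG4, which encodes PSD-95, differed by 0.15 ± 0.24 (adjusted p = 0.85). NOS1, the neuronal nitric oxide synthase, differed by -0.40 ± 0.17 (adjusted p = 0.29). In the cortex channel Cy5 alone NOS1 differed the other way, by 0.80 (adjusted p = 0.058). In the reference channel Cy3 it passed as higher on the TatNR2B9c arrays (1.12, adjusted p = 0.00055). Of 29 measured genes of the NMDA receptor and PSD-95 complex, none passed in either direction, 24 had a difference above 0, and the median was 0.26. Over all genes, 53.1% had a difference above 0.

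Some of the genes with the highest differences belong to the lists of neuronal or glial genes described further on, and these are given first. SLC8A2, the brain sodium-calcium exchanger NCX2, had log2 ratios of 0.43, -0.03 and -0.14 on the TatNR2B9c arrays, against -2.32, -2.21 and -2.87 on the placebo arrays. That is 5.87-fold higher in TatNR2B9c cortex (2.55 ± 0.34, adjusted p = 0.0017), and it passed whichever array of the 6 was left out. SCN8A, the sodium channel Nav1.6 of the axon initial segment, had 2.39, 2.28 and 1.97 on the TatNR2B9c arrays, against 0.55, 0.33 and 0.18 on the placebo arrays (1.86 ± 0.30, adjusted p = 0.0060). With the processed signals the SCN8A difference was 0.30 (adjusted p = 0.83). MAP2, a microtubule protein of dendrites, had 2.40, 2.51 and 2.19 on the TatNR2B9c arrays, against 0.65, 0.64 and -0.04 on the placebo arrays. It was 3.87-fold higher (1.95 ± 0.38, adjusted p = 0.016), but with the processed signals its difference was -0.31, the other way (adjusted p = 0.84). SLC32A1, the transporter that loads GABA into vesicles, was higher by 2.20 ± 0.51 (adjusted p = 0.035) at ratios below 0 on every array, and differed by 0.24 in the cortex channel Cy5 alone (adjusted p = 0.76). SLC1A2, the main glutamate transporter of astrocytes, had 2.44, 2.65 and 2.04 on the TatNR2B9c arrays, against 0.36, 0.32 and -0.08 on the placebo arrays (2.18 ± 0.47, adjusted p = 0.025).

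Other genes near the top have less specific roles. SGTB, a co-chaperone found mainly in brain, was 5.47-fold higher (2.45 ± 0.51, adjusted p = 0.021). DOK5L, a docking protein of receptor tyrosine kinases now called DOK6, was 4.46-fold higher (2.16 ± 0.47, adjusted p = 0.026), but differed by 0.34 with the processed signals (adjusted p = 0.78). ZFYVE19, a zinc finger protein of the abscission checkpoint, had -0.11, 0.10 and -0.31 on the TatNR2B9c arrays, against -2.90, -2.48 and -3.14 on the placebo arrays (2.74 ± 0.47, adjusted p = 0.0098). Without TatNR2B9c array 1 the adjusted p was 0.050 for SCN8A, just above the threshold, 0.057 for ZFYVE19, 0.10 for MAP2, 0.14 for SLC1A2 and DOK5L, 0.17 for SGTB and 0.25 for SLC32A1. Without placebo array 3 it was 0.081 for ZFYVE19, 0.11 for MAP2 and SGTB, 0.14 for SLC1A2 and SLC32A1, and 0.15 for DOK5L. Without TatNR2B9c array 2 it was 0.071 for MAP2, 0.088 for SGTB, 0.098 for DOK5L, 0.11 for SLC1A2 and 0.13 for SLC32A1, and without placebo array 1 it was 0.079 for SGTB, SLC1A2 and DOK5L and 0.12 for SLC32A1. SLC1A2 (0.051) and SLC32A1 (0.082) also missed without placebo array 2, and DOK5L without TatNR2B9c array 3 (0.051). Of all 52 called genes that the naming rule chose, 7, 13 and 35 passed without TatNR2B9c arrays 1, 2 and 3, and 18, 37 and 9 passed without placebo arrays 1, 2 and 3. The other genes among the 12 highest were RND1, a small GTPase that loosens the actin cytoskeleton (1.91), the hair keratin KRTHB1 (1.86) and the microfibril protein FBN1 (1.86). None of these 3 passed in Cy5 alone, where FBN1 was -0.43.

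The lower genes were led by the protocadherin. MUPCDH had log2 ratios of -2.70, -2.37 and -1.88 on the TatNR2B9c arrays, against 0.04, 1.70 and 0.31 on the placebo arrays. It was 8.01-fold lower in TatNR2B9c cortex (-3.00 ± 0.33, adjusted p = 0.00023) and passed whichever array was left out. The overlapping MUCDHL probe gave -2.46 ± 0.36 (adjusted p = 0.0043), while a further MUCDHL probe elsewhere gave -0.45 (adjusted p = 0.39). GNG4, a G protein gamma subunit, had -1.88, -1.34 and -1.68 on the TatNR2B9c arrays, against 0.50, 0.77 and 0.05 on the placebo arrays (-2.07 ± 0.32, adjusted p = 0.0051). HRC, a calcium-binding protein of the sarcoplasmic reticulum, had a difference of -1.71 ± 0.28 (adjusted p = 0.0060, 0.057 without TatNR2B9c array 1). NMB, the peptide neuromedin B, had -1.81, -1.89 and -1.18 on the TatNR2B9c arrays, against -0.11, -0.59 and 0.07 on the placebo arrays (-1.42 ± 0.28, adjusted p = 0.016). APOE, the lipid carrier made by astrocytes, had -3.50, -3.17 and -2.84 on the TatNR2B9c arrays, against -1.14, -2.15 and -0.02 on the placebo arrays (-2.07 ± 0.47, adjusted p = 0.033). The placebo values of APOE spread over more than 2 log2 units, and the call was lost without TatNR2B9c array 1 (adjusted p = 0.19), TatNR2B9c array 2 or placebo array 1 (0.11 each), TatNR2B9c array 3 (0.051) and placebo array 3 (0.20). ENTPD5, a nucleotide phosphatase of the endoplasmic reticulum, had -1.99, -1.69 and -1.87 on the TatNR2B9c arrays, against -0.01, -0.03 and -0.12 on the placebo arrays (-1.80 ± 0.18, adjusted p = 0.00013). The actin-binding profilin PFN1 (-1.81), the kinase gene GLYCTK (-1.84), the metallothionein MT1J (-2.18) and the major histocompatibility genes MAMU-E (-1.88) and MAMU-DRB5 (-1.85) also passed as lower. In Cy5 alone APOE (1.59), ENTPD5 (1.72), GNG4 (0.39), GLYCTK (0.92), MT1J (0.51), MAMU-E (1.20) and MAMU-DRB5 (0.94) ran the other way. The plot of log2 ratios on each array sets these genes side by side.

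**Figure D1:**
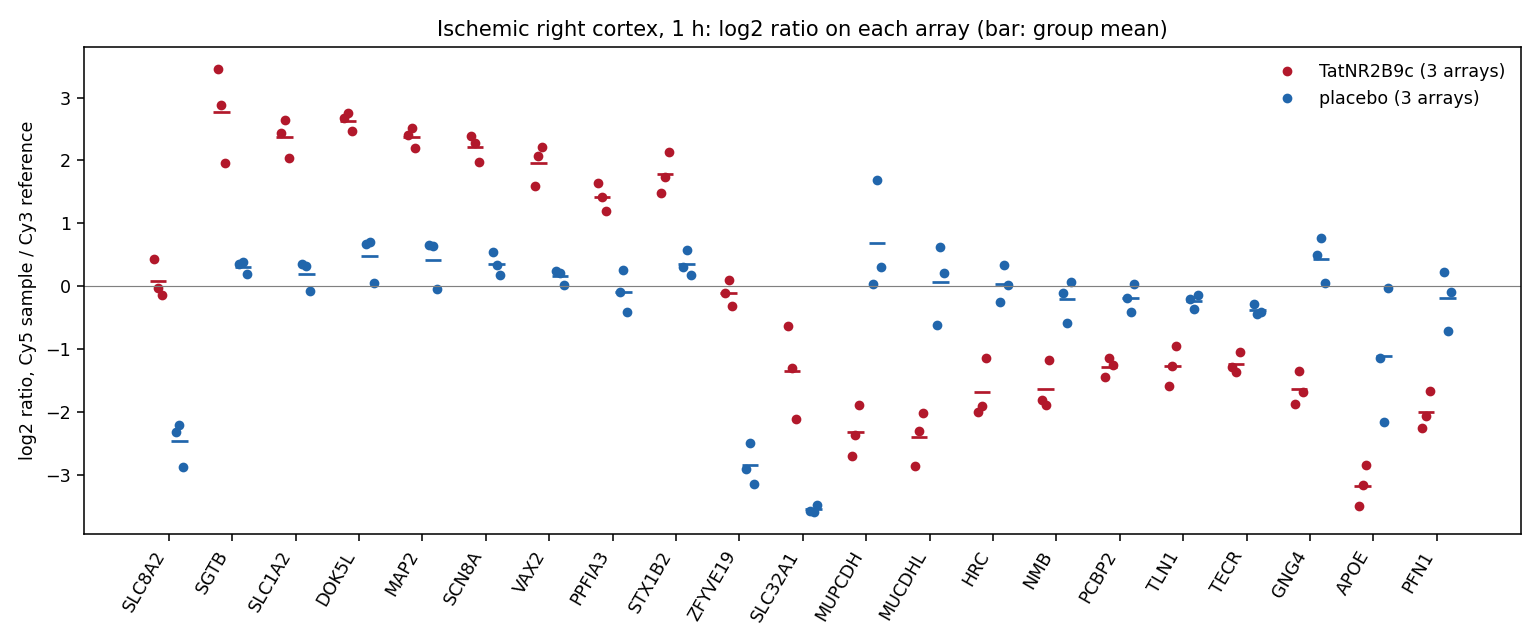
Log2 ratio of cortex RNA (Cy5) over reference RNA (Cy3) for 21 named genes on the 3 TatNR2B9c arrays (red) and the 3 placebo arrays (blue) of right cortex at 1 h; each point is an array and each bar a group mean. The groups are apart for every gene drawn, and most placebo values of the higher genes and of the lower genes alike lie near 0, while SLC8A2, ZFYVE19 and SLC32A1 lie far below 0 in placebo cortex.

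A ratio moves when either channel moves, so each channel was also tested alone. In Cy5, which holds the cortex RNA, 2676 genes (17%) passed, 1239 higher and 1437 lower in TatNR2B9c cortex. In Cy3, which holds reference RNA of the same name on every array, 3288 genes (20.9%) passed, 1868 higher and 1420 lower on the TatNR2B9c arrays. With median centring in place of quantile normalisation, which put the median of all genes at -0.25 in Cy5 and 0.05 in Cy3, the split was 1044 higher and 5010 lower in Cy5, and 1015 higher and 8 lower in Cy3. The reference signal thus differed between the 2 sets of arrays in many genes, and which channel had more calls depended on the normalisation. The Cy5 count was 1229 without TatNR2B9c array 2, 1618 without placebo array 3, 1699 without placebo array 1, 1706 without placebo array 2 and 1750 without TatNR2B9c array 3. The Cy3 count was 2065 without TatNR2B9c array 1. Across genes the differences of the 2 channels ran together (r = 0.70 over 15753 genes, which share spots and arrays and are not independent). Of 1389 genes that passed in both channels, 743 were higher in both, 639 lower in both and 7 opposite. The reference gave a signal well above background on all 3 TatNR2B9c arrays and on no placebo array for 886 genes, and the reverse for 2.

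The genes called in each direction of the ratio were then read in each channel. Of the 58 higher genes, 50 were also above 0 in Cy5 alone and 28 passed there, and none passed the other way. Over all genes, 45.0% were above 0 in Cy5. The ratio is Cy5 over Cy3 of the same spots, so genes chosen by it lean to a matching Cy5 sign and an opposite Cy3 sign. The counts over all genes are therefore not a like comparison. Of the 189 lower genes, 49 were below 0 in Cy5 alone and 8 passed there, while 28 passed the other way. Cy3 was higher on the TatNR2B9c arrays for 188 of these 189 genes and passed for 161. Their median difference was -1.10 in the ratio, 0.32 in Cy5 and 1.30 in Cy3. For the 58 higher genes, Cy3 was lower on the TatNR2B9c arrays for 34 and passed as lower for 13, while it passed as higher for another 13. Over all genes, 47.7% were above 0 in Cy3. The medians of the 58 higher genes were 1.34 in the ratio, 0.76 in Cy5 and -0.37 in Cy3. The higher calls thus also came in part with a lower reference signal. PYY, the gut peptide YY, is an example: its ratio was lower by -1.95 ± 0.35 (adjusted p = 0.012) while Cy5 differed by 3.13 and Cy3 by 4.57, both higher on the TatNR2B9c arrays. APOE was likewise higher in Cy5 by 1.59 and in Cy3 by 3.39. GNG4 differed by 0.39 in Cy5 (adjusted p = 0.42) and by 2.49 in Cy3. ENTPD5 and MAMU-E passed as higher in Cy5 (1.72 and 1.20) and in Cy3 (2.30 and 2.36), against their lower ratios. ZFYVE19, whose ratio was higher, passed as higher in Cy5 (1.05, adjusted p = 0.0016) and as lower in Cy3 (-2.38, adjusted p = 0.019).

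**Figure D2:**
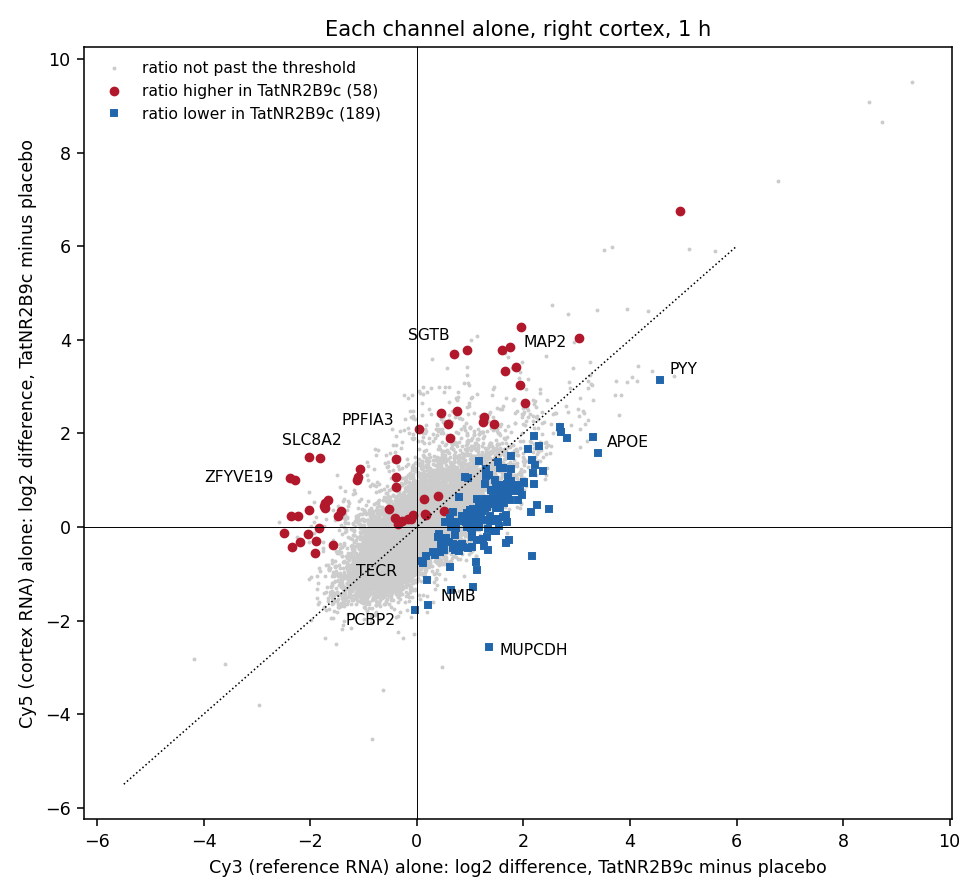
Log2 difference, TatNR2B9c minus placebo, of each gene in Cy3 alone (x axis, reference RNA) and in Cy5 alone (y axis, cortex RNA), right cortex at 1 h, with 3 arrays in each group. Most blue squares, the 189 genes whose ratio was lower, lie right of 0 on the Cy3 axis, and the dotted line marks equal differences in both channels.

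In Cy5 and in the ratio with the same sign, 28 genes passed as higher and 8 as lower. For 14 of the 28 and 4 of the 8 the reference channel did not pass. The ratio contains the Cy5 signal, so passing in both readouts is not independent support. The 4 lower genes were NMB, PCBP2, TLN1 and TECR. For NMB the Cy5 brightness over local background, before any normalisation, was 85.8, 163 and 189 on the TatNR2B9c arrays, against 2925, 535 and 3651 on the placebo arrays. Its Cy3 brightness was 512, 269 and 107.1 on the TatNR2B9c arrays, against 110, 100.2 and 15.3 on the placebo arrays. The cortex signal of NMB was thus dimmer, and its reference signal brighter or alike, on the TatNR2B9c arrays. The median Cy5 brightness of all probes was 40.6, 94.3 and 55.9 on the TatNR2B9c arrays, against 179, 68.6 and 163 on the placebo arrays. In Cy3 it was 67.9, 39.6 and 17.8, against 21.7, 21.8 and 7.25. The raw brightness of single genes, here and below, therefore reads against these medians. After normalisation the Cy5 difference was -1.66 ± 0.36 (3.17-fold lower, adjusted p = 0.0040) and the Cy3 difference 0.22 (adjusted p = 0.41). The other probe named NMB has the same 60 bases and is a repeat reading only.

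PCBP2 encodes a poly(rC)-binding protein that acts on mRNA stability and translation. Its Cy5 brightness was 49.2, 247 and 96.3 on the TatNR2B9c arrays, against 2080, 622 and 2893 on the placebo arrays, and its normalised Cy5 difference was -1.77 ± 0.43 (adjusted p = 0.0088). Its ratio differed by -1.09 ± 0.26 (adjusted p = 0.037). TLN1 encodes talin, which links integrins to actin, and differed by -1.03 ± 0.26 in the ratio (adjusted p = 0.049) and -1.14 in Cy5 (adjusted p = 0.020). TECR encodes an enzyme of very-long-chain fatty acid synthesis, and differed by -0.86 ± 0.17 in the ratio (adjusted p = 0.016) and -0.73 in Cy5 (adjusted p = 0.034). Its Cy5 brightness was 303, 452 and 474 on the TatNR2B9c arrays, against 3330, 1355 and 3447 on the placebo arrays. These 4 ratio calls were lost without TatNR2B9c array 1 (adjusted p = 0.10 to 0.30), TatNR2B9c array 2 (0.076 to 0.15), placebo array 1 (0.073 to 0.15) or placebo array 3 (0.091 to 0.20), and those of PCBP2 and TLN1 also without placebo array 2 (0.051 and 0.077). PCBP2 was lost without TatNR2B9c array 3 as well (0.081).

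MUPCDH passed in both readouts too, and its reference channel passed in the opposite direction. Its Cy5 brightness was 50.2, 120 and 70.9 on the TatNR2B9c arrays, against 1179, 2259 and 3772 on the placebo arrays, and its normalised Cy5 difference was -2.57 ± 0.43 (adjusted p = 0.00056). In Cy3 it was higher by 1.36 (adjusted p = 0.00051). The overlapping MUCDHL probe did not pass in Cy5 (-0.61, adjusted p = 0.40). HRC (-1.29), the histone gene HIST1H4K (-0.91) and the integrin subunit ITGA8 (-1.34) passed as lower in Cy5 in the same way, each with a Cy3 difference that passed as higher (1.06, 1.13 and 0.65).

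Of the 14 higher genes whose reference channel did not pass, 10 have a symbol. SLC8A2 had a Cy5 brightness of 154, 307 and 359 on the TatNR2B9c arrays, against 178, 75.7 and 245 on the placebo arrays, which overlap. Its Cy3 brightness was 118, 91.0 and 67.8 on the TatNR2B9c arrays, against 116, 125 and 106 on the placebo arrays, also overlapping. Normalised Cy5 was 2.84-fold higher in TatNR2B9c cortex (adjusted p = 0.029) and the Cy3 difference was -2.03 (adjusted p = 0.070). PPFIA3, the presynaptic scaffold liprin-alpha-3, was 2.83-fold higher in the ratio (adjusted p = 0.024), and differed by 2.09 in Cy5 (adjusted p = 0.00046) and 0.05 in Cy3 (adjusted p = 0.95). STX1B2, a syntaxin of vesicle fusion, differed by 1.43 ± 0.35 in the ratio (adjusted p = 0.048) and 1.89 in Cy5 (adjusted p = 0.040). VAX2, a homeobox factor known from eye and forebrain development, differed by 1.80 ± 0.34 in the ratio (adjusted p = 0.014) and 2.48 in Cy5 (adjusted p = 0.011). Under median centring, where the median of all genes was -0.78, the ratio difference was -0.43 for VAX2, -0.97 for STX1B2 and 0.30 for PPFIA3 (adjusted p = 0.47). The call of STX1B2 was lost without any 1 of the 6 arrays (adjusted p = 0.070 to 0.20), that of PPFIA3 without TatNR2B9c array 1 or 2 or placebo array 1 or 3 (0.086 to 0.16), and that of VAX2 without TatNR2B9c array 2 (0.057) or placebo array 3 (0.091).

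For SGTB, SLC1A2, DOK5L, MAP2 and SCN8A both channels passed as higher. Their Cy5 differences were 3.78, 3.69, 4.26, 3.84 and 3.79, and their Cy3 differences 0.93, 0.69, 1.96, 1.76 and 1.59. For MAP2 the Cy3 brightness was 204, 190 and 59.1 on the TatNR2B9c arrays, against 11.5, 11.1 and 8.04 on the placebo arrays. The Cy5 brightness of MAP2 was 1288, 4427 and 2468 on the TatNR2B9c arrays, against 530, 170 and 449 on the placebo arrays.

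**Figure D3:**
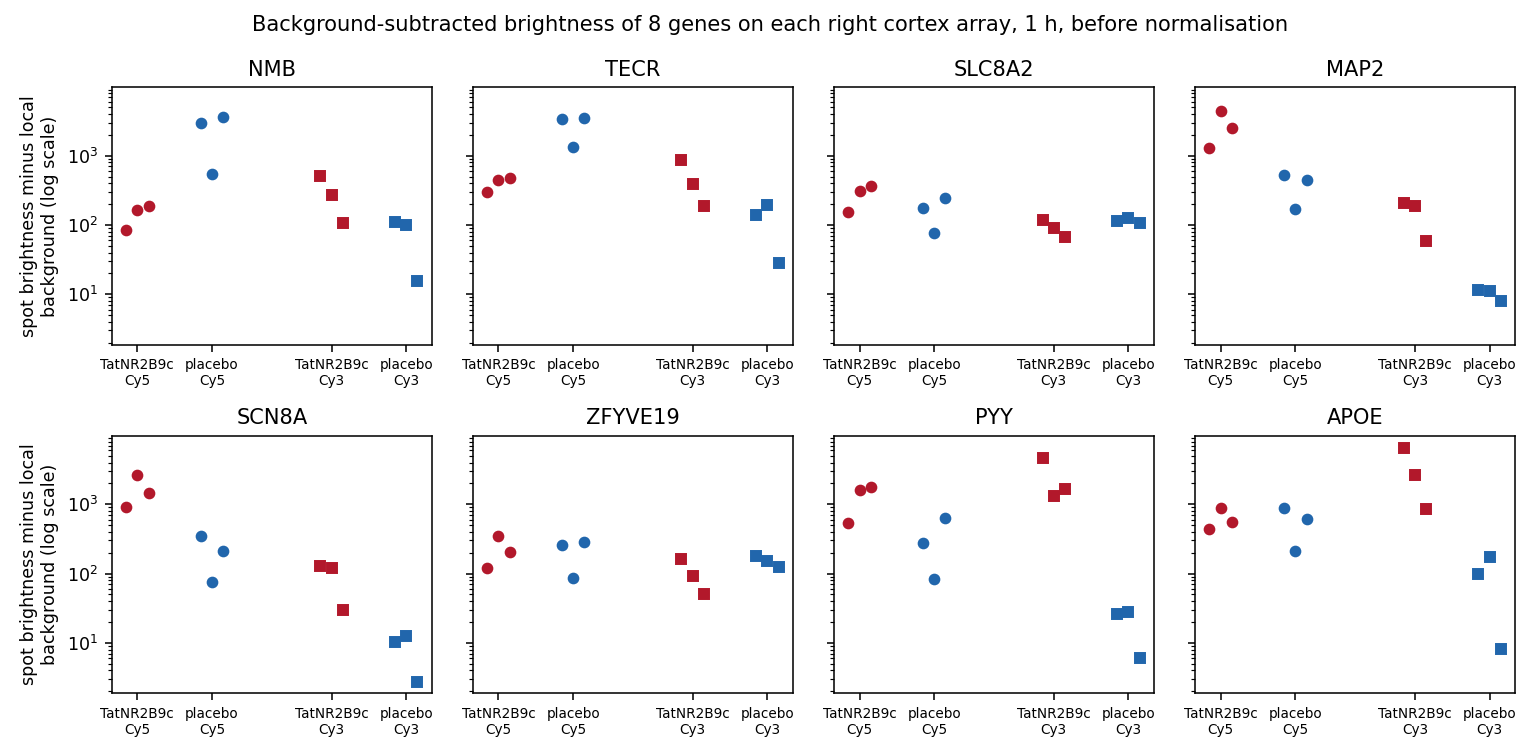
Spot brightness minus local background, before normalisation and on a log scale, for 8 genes on the 3 TatNR2B9c (red) and 3 placebo (blue) arrays of right cortex at 1 h, with Cy5 (cortex RNA) as circles and Cy3 (reference RNA) as squares. NMB and TECR are dimmer in Cy5 on every TatNR2B9c array, while for MAP2, SCN8A and PYY the reference channel is also brighter there. The median brightness of all probes differed between arrays as well.

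A few calls came from genes that Cy5 measured in 1 treatment only. STEAP3, an iron reductase, was well above background in Cy5 on all 3 TatNR2B9c arrays and on no placebo array, while its ratio was lower in TatNR2B9c (-1.31, adjusted p = 0.040). COL5A1, a fibrillar collagen, was well above background in Cy5 on no TatNR2B9c array and on all 3 placebo arrays, while its ratio was higher in TatNR2B9c (0.71, adjusted p = 0.042). SLC5A2, a sodium-glucose transporter, was also measured on the placebo arrays alone, and its ratio was lower in TatNR2B9c (-1.26, adjusted p = 0.034). For STEAP3 and COL5A1 the ratio and the cortex channel thus pointed in opposite directions. None of the 3 passed in Cy5 alone (adjusted p = 0.48, 0.22 and 0.20). All 3 lay near background. The Cy5 brightness of STEAP3 was 18.8, 38.6 and 18.1 on the TatNR2B9c arrays, against 20.25, 11.4 and 8.66 on the placebo arrays, which overlap. For COL5A1 and SLC5A2 the brightness did not overlap. As bounds, the normalised cortex signal differed by at least 1.42-fold for STEAP3, 1.04-fold for COL5A1 and 1.05-fold for SLC5A2. These are small differences around the detection limit.

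The calls also differed with the base composition of the probes. Of 3759 genes read by a probe with over 50% G and C, 3.27% were called lower, against 0.376% of the 6645 genes with up to 40%. The shares called higher were 0.559% and 0.256%. The median ratio difference was -0.09 over 50% and 0.09 up to 40%, and in the left cortex it was 0.02 in both. Of the probes shown above for genes called lower, those of TECR, MUPCDH and MUCDHL hold 68.3%, 65% and 60% G and C, and that of NMB 36.7%. Of those for genes called higher, SLC8A2 has 60%, VAX2 43.3%, SGTB 40%, SCN8A 35% and MAP2 31.7%. The part of base composition in the calls was not tested.

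The left, non-ischemic cortex of the same treatments was read as a check of where the difference lies, on 6 further arrays. Left placebo arrays 1 and 3 had only 18.0% and 14.0% of probes well above background in Cy3, against 50.7% on array 2. The log2 ratios of left placebo array 1 had an SD of 0.36. Together with right placebo array 3 they are the 3 arrays of weakest reference channel, which limits this check. There 140 genes (0.889%) passed, 134 higher and 6 lower in TatNR2B9c cortex. The split was 905 higher and 362 lower with arrays scaled to equal spread, and 4010 and 8140 with median centring. The left count was 19 and 14 without left arrays 1 and 2 of TatNR2B9c animals, and 46, 217 and 50 without left arrays 1, 2 and 3 of placebo animals. Of the 58 genes higher in right cortex, 57 were above 0 on the left and 36 passed there, with a median left difference of 1.45. Of the 189 lower genes, 187 were below 0 on the left and 6 passed, with a median of -0.56. Over all genes, 54.3% were above 0 on the left. SLC8A2 differed by 2.67 on the left (adjusted p = 0.0016), where the TatNR2B9c arrays had 0.03, 0.65 and -0.90 and the placebo arrays -2.91, -2.53 and -2.79. MUPCDH differed by -1.59 on the left (adjusted p = 0.028).

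The test of treatment by hemisphere itself, right difference minus left difference, called 0 genes with limma (273 had an unadjusted p under 0.05), and 0 in Cy5 alone (246 unadjusted). Among the genes above, MUPCDH had an interaction of -1.41 (unadjusted p = 0.0070) and NMB of -0.998 (unadjusted p = 0.020). For NMB the left arrays had -0.71, -1.02 and -0.87 with TatNR2B9c and 0.10, -0.70 and -0.74 with placebo, which overlap. No gene's difference was therefore shown to be particular to the ischemic side.

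**Figure D4:**
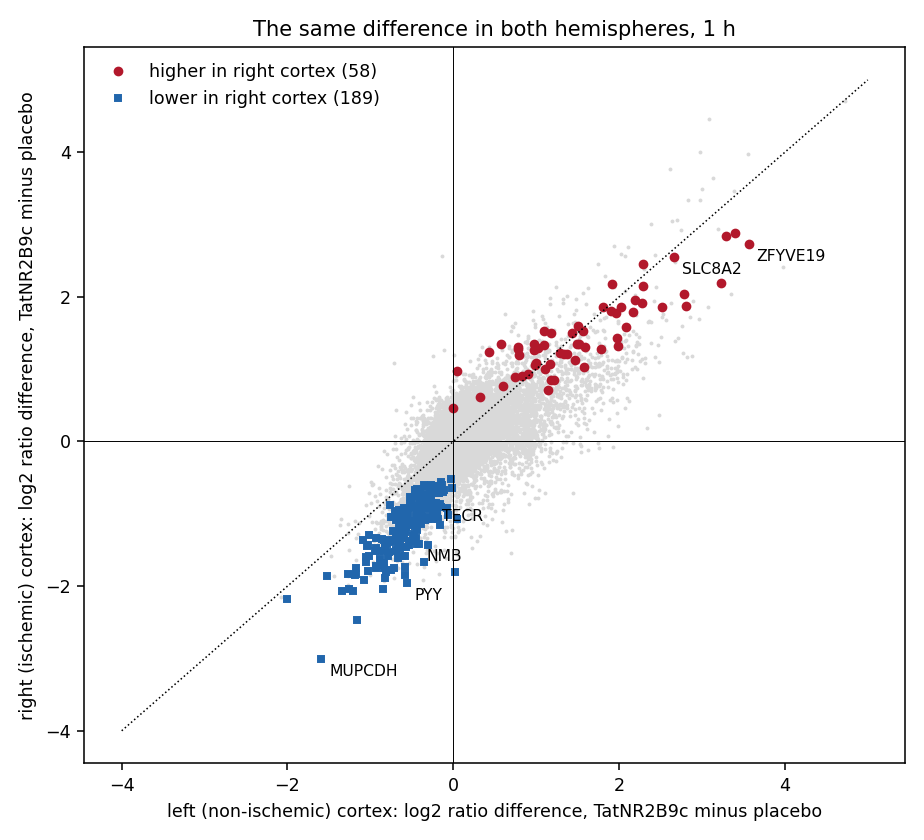
Log2 ratio difference, TatNR2B9c minus placebo, in left non-ischemic cortex (x axis) and right ischemic cortex (y axis) at 1 h, for all genes, with the 58 genes higher (red) and 189 lower (blue) in right cortex. The higher genes scatter around the dotted line of equal difference, and the lower genes lie mostly below it, with smaller differences on the left.

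Lists of genes with a shared role were described by the count of members that passed and by the median difference, beside a median of 0.02 over all genes in the ratio and -0.06 in Cy5, and beside 0.368% of all genes called higher and 1.2% called lower. Counts of members above 0 read against 53.1% of all genes in the ratio. Median centring moved the median of all genes to -0.78 in the ratio, so a list's value under that scaling reads against -0.78. The 9 lists of neuronal receptors, channels, pumps, vesicle proteins and neuron markers had medians from 0.26 to 0.77 in the ratio, and under median centring 8 of these medians were below 0. Of the 9, those of sodium channels (0.03), potassium channels (-0.10), the AMPA, kainate and metabotropic receptors (-0.37) and calcium channels (-0.42) lay above the -0.78 of all genes under that scaling, and the other 5 below it. Placebo array 3 carried much of these medians: without it they were 0.08 for the AMPA, kainate and metabotropic receptors, 0.15 for calcium channels, 0.24 for potassium channels, 0.26 for vesicle release and 0.36 for both GABA genes and sodium channels. Of the 17 measured genes of GABA receptors and synthesis, 1 rose (SLC32A1, which did not pass in Cy5) and the median was 0.62. Among 12 genes of voltage-gated sodium channels SCN8A rose (median 0.65), among 30 of potassium channels KCNAB2, a beta subunit, rose in the ratio (0.50), and among 17 exchangers and pumps SLC8A2 rose (0.61). KCNAB2 differed by 0.23 in Cy5 (adjusted p = 0.60) and passed as lower in Cy3 (-1.49, adjusted p = 0.031). No member of the lists for AMPA, kainate and metabotropic glutamate receptors (19 genes, median 0.40), calcium channels (15 genes, 0.42) or vesicle release (24 genes, 0.60) passed. In Cy5 alone the medians of the 9 lists were 0.06 to 0.40. In the left, non-ischemic cortex their ratio medians were 0.23 to 1.21, beside 0.02 over all genes there. The left median was above the right one for neuron markers (1.21), vesicle release (0.87), GABA genes (0.75) and the NMDA receptor complex (0.42). It was alike for exchangers and pumps (0.61). It was below the right one for sodium (0.37), calcium (0.33) and potassium channels (0.27) and the AMPA, kainate and metabotropic receptors (0.23).

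Neuron markers had a median log2 ratio of 1.97, 1.87 and 2.07 on the TatNR2B9c arrays, against 1.27, 1.92 and 0.21 on the placebo arrays. The low value was that of the array with the weakest reference channel, and placebo array 2 lay among the TatNR2B9c arrays. MAP2 alone rose among the 29 measured, 28 were above 0, and the median difference was 0.77, which was 0.39 without placebo array 3 and 0.18 in Cy5 alone. The astrocyte list (19 genes) had 1 member that rose, SLC1A2, and a median of 0.46 in the ratio, but -0.33 in Cy5 and -2.35 under median centring. The oligodendrocyte list (19 genes) had none that passed, and a median of 0.25 in the ratio, but -0.70 in Cy5, -0.13 with the series matrix and -2.46 under median centring. Without placebo array 3 these ratio medians were 0.15 for astrocytes and 0.09 for oligodendrocytes.

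The marker lists of immune cells had ratio medians below 0. Among 17 microglia and macrophage markers FCER1G, an Fc receptor chain, fell in the ratio (0.80 in Cy5), 4 were above 0 and the median was -0.37, but Cy5 alone had a median of 0.12 and Cy3 of 0.55, and without placebo array 3 the ratio median was -0.21. Of 13 lymphocyte markers none passed and none was above 0, with a median of -0.33 in the ratio, -0.28 in Cy5 and 0.50 in Cy3. Endothelial and mural markers (20 genes, median -0.17), neutrophil and red cell markers (13 genes, -0.10, but 0.46 under median centring) and meningeal and choroid plexus markers (15 genes, -0.04, but 0.38 with arrays scaled to equal spread) had no member that passed. The part of the cell makeup of the biopsies in these medians was not tested.

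Of 37 immediate early genes, which neurons switch on within minutes of activity or injury, KLF6 fell in the ratio (-1.33, adjusted p = 0.035, with 0.70 in Cy5), and the median was 0.21. Under median centring it was -0.78, as over all genes. Among 21 heat shock proteins HSPB8, a small heat shock protein, fell in the ratio (0.10 in Cy5, list median 0.15, but -0.14 in Cy5, 0.04 without placebo array 3 and -2.10 under median centring). Among 32 genes of cell death and p53 targets the protease CAPN1 fell in the ratio (0.44 in Cy5) and BAX, a pore former of the mitochondrial membrane, rose in the ratio (0.57 in Cy5, adjusted p = 0.24). For BAX a probe of the same sequence gave 1.49 and its other 2 probes gave -0.12 and -0.13, so the probes disagree. The lists of the unfolded protein response (19 genes), hypoxia-inducible targets (28), inflammatory cytokines (34), antioxidant enzymes and metallothioneins (21) and neurotrophic factors (19) had no member that passed, with medians from -0.08 to 0.07, each of which changed sign under at least 1 alternative. The metallothionein MT1J, which passed as lower in the ratio, is not a member of these lists.

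Among 51 cytosolic ribosomal protein genes RPLP1, RPL3 and RPL11 rose (median 0.31, but -0.07 in Cy5, 0.15 without placebo array 3 and -3.43 under median centring), and of these RPL3 also passed in Cy5 (0.67, adjusted p = 0.042). Among 41 oxidative phosphorylation genes NDUFB10 and ATP5O rose in the ratio, with 0.26 and 0.60 in Cy5 (adjusted p = 0.39 and 0.069). Among 28 proteasome genes PSMB1 rose in the ratio (0.06 in Cy5, adjusted p = 0.88) and PSMB3 fell (-0.74 in Cy5, adjusted p = 0.18). Among 30 genes of RNA polymerase II and general transcription factors TAF10 fell in the ratio (0.25 in Cy5). In the signalling list of G protein subunits and regulators (25 genes), GNG4 fell in the ratio. Under median centring RPLP1, RPL3, RPL11, NDUFB10, ATP5O and PSMB1 all turned to differences below 0.

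**Figure D5:**
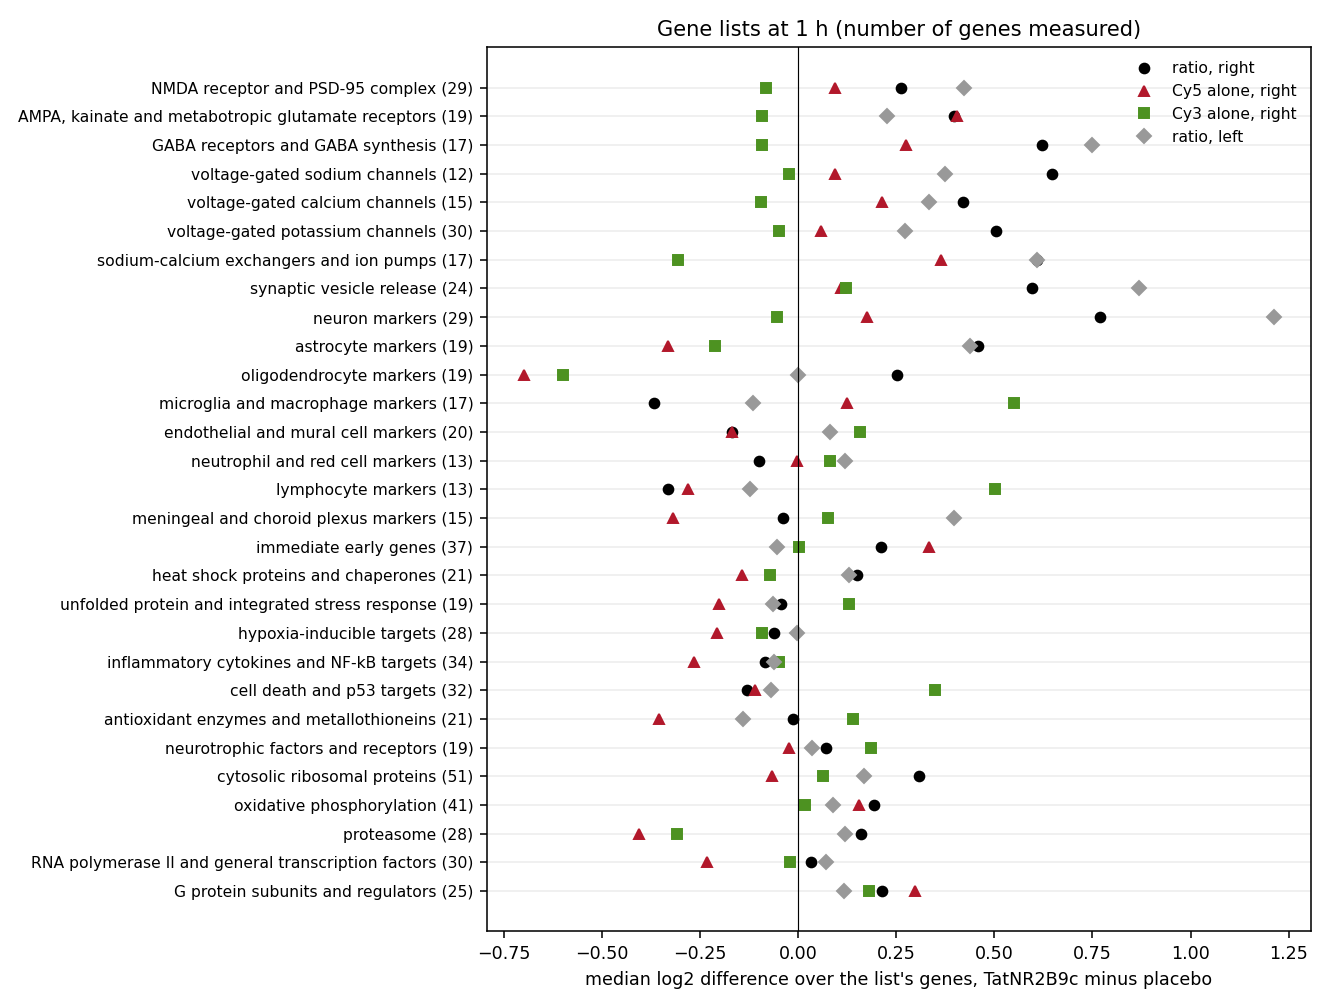
Median log2 difference, TatNR2B9c minus placebo, over the measured genes of each of 29 lists (number in brackets) at 1 h, for the ratio in right cortex (circles), Cy5 alone (triangles), Cy3 alone (squares) and the ratio in left cortex (diamonds). Ratio medians of the neuronal lists lie right of 0 by 0.26 to 0.77, and their Cy5 medians by 0.06 to 0.40. Their left cortex ratio medians lie right of 0 by 0.23 to 1.21.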

How the data were processed

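Of the 24 Agilent 2-colour arrays, 1 per cortical sample, the 6 of right cortex at 1 h were compared. Per the file headers, images were extracted by the authors with Agilent Feature Extraction, version 10.7.3.1 for TatNR2B9c and 9.5.3.1 for placebo 1 h. The submitters' processing notes give 10.7.3.1 alone. Per the file headers, the deposited intensities are linear, unnormalised values: mean brightness of each spot and median local background for either channel. Per the file headers, the same software subtracted background and normalised the dyes for the deposited processed intensities and log10 ratios, and the deposited signal flags mark spots well above background. The series matrix of the authors has identical log10 ratios of Cy5 over Cy3 (within 0.005 of the scanner values), with medians of 0 on the 3 TatNR2B9c right 1 h arrays and 0.043, 0.013 and 0.16 on placebo arrays 1, 2 and 3, so scale and direction are known and no further centring was made.

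From mean and background intensities, limma 3.58.1 in R 4.3.3 was run with normexp (offset 50), loess within arrays and control spots at weight 0. Control and non-uniform spots were left out and spots of a probe averaged. Probes were kept if all arrays of some group, of 8, had them well above background in Cy5 (17213 of 20217), and the probe of highest mean intensity read each gene (15753 genes, 12659 with a symbol). Names are those of the array files, and 1003 of 5876 probes with 2 names had differing ones. Cy5 and Cy3 alone were quantile-normalised over the 24 arrays. limma's lmFit and eBayes were fitted to 8 group means, two-sided, with Benjamini-Hochberg adjustment. The steps were tested on simulated data. No count of molecules underlies these values, and the number of arrays limits the precision.

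Named genes were the 12 highest and 12 lowest called ratio differences among genes measured in Cy5 on all 6 arrays, up to 10 higher and 10 lower that also passed in Cy5, genes measured in 1 treatment only, called list members, the 3 brightest members of lists, and the peptide's targets. Other named genes are marked as such, and some that the rule chose are not reported here. The arrays, genes and 29 lists were chosen with earlier results of these data known. Alternatives covered normalisation, filters, blocks and left-out arrays. Right and left arrays of the same number were not treated as 1 animal in the tests. Numbers shared between treatments were not used to pair samples.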

Additional observations from a re-analysis of the deposited data

How the results depend on the processing

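Of the 247 calls in right cortex, the count was 2676 in Cy5 alone, 950 with processed signals, 940 with the authors' series matrix, 10575 with median centring (which moved the median of all genes to -0.78), 88 with arrays scaled to equal spread, 40 among 3968 genes measured in both channels, 42 with only the 2 groups fitted, 2631 with array weights, 53 without the 3 arrays of weakest reference channel and 92 with the scan day as a random block, and 17 to 193 with 1 array left out. The left cortex count of 140 was 12150 with median centring, 1267 scaled, 402 with weights, 22 without the 3 weak arrays and 48 with the scan day as a block, and 14 to 217 with 1 array left out. The Cy5 count of 2676 was 6054 with median centring, 975 in both channels, 4805 with 2 groups, 1311 without the weak arrays, 1771 with the scan day as a block and 1229 to 2154 with 1 array left out. The Cy3 count of 3288 was 1023, 1290 and 5539 with median centring, both channels and without the weak arrays, and 2065 to 3178 with 1 array left out. The interaction gave 0 in every setting run. The replicate number as a block gave 273 calls (left 193). Same-numbered right cortex samples of the 2 treatments correlated at 0.06, 0.06 and 0.30 for numbers 1, 2 and 3. Samples of other numbers correlated at -0.24 to 0.32, -0.06 to 0.05 and -0.38 to -0.10. These values do not settle whether the numbers share more than a name. The causes were not tested.

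Of 52 called genes that the naming rule chose, 16 turned in Cy5 alone: FBN1 (-0.43), ENTPD5 (1.72), GLYCTK (0.92), MAMU-DRB5 (0.94), MAMU-E (1.20), PYY (3.13), APOE (1.59), MT1J (0.51), GNG4 (0.39), COL5A1 (-0.39), STEAP3 (0.49), TAF10 (0.25), FCER1G (0.80), KLF6 (0.70), HSPB8 (0.10) and CAPN1 (0.44). MAP2 and FSIP2 turned with processed signals (-0.31 and -0.42) and the series matrix (-0.30 and -0.42). Median centring turned RND1 (-0.46), KRTHB1 (-1.72), VAX2 (-0.43), STX1B2 (-0.97), RPL11 (-2.89), RPL3 (-3.17), ATP5O (-2.92), NDUFB10 (-3.27), RPLP1 (-3.58) and PSMB1 (-2.83), and of genes not called GRIN2A (-1.97) and GRIN1 (-3.13). MUPCDH and SLC8A2 passed in 18 of 19 settings each, and missed with 2 groups fitted (adjusted p = 0.091) and with equal spread (0.075).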

Other observations

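Outside the rule for named genes, and chosen after their values were seen, some higher genes that passed in the ratio and in Cy5 alone are known from brain. GSK3B, a kinase of neuronal survival and metabolism, differed by 1.00 in the ratio (adjusted p = 0.014, limma), 2.36 in Cy5 and 1.26 in Cy3. L1CAM, an adhesion molecule of axons, differed by 1.06 in the ratio (adjusted p = 0.043) and 1.07 in Cy5, with a Cy3 difference of -1.10 (adjusted p = 0.12). NEDD4L, a ubiquitin ligase of ion channels, differed by 1.32 in the ratio, 4.04 in Cy5 and 3.05 in Cy3. NDFIP2, an adaptor of that ligase family, differed by 1.27 in the ratio, 0.85 in Cy5 and -0.38 in Cy3. Each of these 4 also lay above 0 in the left cortex, by 1.103 for GSK3B, 0.99 for L1CAM, 1.99 for NEDD4L and 0.97 for NDFIP2.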
